A study of Mus musculus with 2 samples.

Results

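The 9 genes described here are the glucocorticoid receptor gene Nr3c1 and 8 genes of its circuit, namely Fkbp5, Tsc22d3, Per1, Klf9, Sgk1, Zbtb16, Hsd11b1 and Anxa1. They were taken by symbol from the GENCODE vM21 annotation of the mouse genome build GRCm38, which holds 22028 protein-coding genes, and every H3K4me3 peak that overlapped one of them or lay within 1000 bp of one of their transcript starts was collected. H3K4me3, trimethylation of lysine 4 of histone H3, is a mark of transcript starts. It was profiled in group 2 innate lymphoid cells (ILC2s) sorted from the lung, by CATCH-seq, a low-input form of native ChIP-seq with chromatin cut by MNase. For the control library, about 3000 ILC2s were taken from offspring, 8 weeks old, of control mothers, which were given PBS and alum intraperitoneally before mating and intranasal PBS from gestation day 4 to day 17. For the other library, about 3000 ILC2s were taken at the same age from offspring of asthmatic mothers. These mothers were given 100 µg ovalbumin (OVA) with alum intraperitoneally at each of repeated sensitizations before mating. Over the same gestation days they were given 500 µg OVA at each of repeated intranasal doses. The mothers were mated with untreated males, and no treatment of the offspring is named in the labels. The mice were wild-type C57BL/6J, with a single pregnant dam per group. With 1 library per group, no value has a replicate, the groups could not be tested against each other, and litter, library and maternal treatment cannot be told apart.

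The glucocorticoid receptor is a nuclear receptor that is held in the cytoplasm by HSP90 and its cochaperones. On binding a glucocorticoid it moves to the nucleus, where a dimer binds a palindromic DNA element and raises the transcription of target genes. Fkbp5 encodes a cochaperone that lowers the affinity of the receptor for its ligand, so that its induction closes a negative feedback loop. Tsc22d3 encodes GILZ, which restrains inflammatory transcription factors, Per1 a clock protein, Klf9 a Krüppel-like transcription factor, Sgk1 a serine/threonine kinase, and Zbtb16 the transcription factor PLZF, which is also known for its part in the development of innate lymphoid precursors. Anxa1 encodes annexin A1, a mediator of the resolution of inflammation. Hsd11b1 encodes the enzyme that regenerates active glucocorticoid from its inactive keto form within cells. In allergic lung disease, glucocorticoids are the main anti-inflammatory drugs, and ILC2s are a tissue source of type 2 cytokines.

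The question of the study was how asthma of the mother during pregnancy leaves its mark on lung ILC2s of the offspring, with glucocorticoid signalling as one of its subjects. Promoters of 6 of these genes show the kinds of start that the peak lists marked or left unmarked. Each sequence is the RefSeq promoter window of build GRCm38.p6, from 250 bases before to 50 bases after the start, 5′ to 3′ on the strand of the gene, and each was identical to the genome at its coordinates. The table of windows held 7 of the 9 genes. In the first 5, capitals mark CpG dinucleotides, the C and G pairs that are dense at most promoters carrying H3K4me3. Fkbp5 (chr17:28486100-28486399, minus strand, 32 CpG) and Klf9 (chr19:23140976-23141275, plus strand, 28 CpG) are given as starts with a peak in both lists. Tsc22d3 (chrX:140542619-140542918, minus strand, 16 CpG) is given as the promoter of its short transcripts, which had the widest gap of the set in rank among all peaks. Anxa1 (chr19:20390622-20390921, minus strand, 3 CpG) and Hsd11b1 (chr1:193242311-193242610, minus strand, 6 CpG) had no peak in either list at any start. Over all 32851 RefSeq windows the median was 7 CpG, with quartiles of 3 and 20. In the last, the window of the Sgk1 start at 21993890 (chr10:21993640-21993939, plus strand, 10 CpG), capitals mark the match to the receptor's palindrome.
Fkbp5: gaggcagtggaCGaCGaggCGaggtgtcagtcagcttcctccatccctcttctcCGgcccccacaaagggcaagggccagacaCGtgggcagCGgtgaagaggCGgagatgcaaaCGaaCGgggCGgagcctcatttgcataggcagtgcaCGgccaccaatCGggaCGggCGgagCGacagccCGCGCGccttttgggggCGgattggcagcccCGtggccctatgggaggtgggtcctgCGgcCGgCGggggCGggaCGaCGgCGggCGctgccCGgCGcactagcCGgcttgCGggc
Klf9: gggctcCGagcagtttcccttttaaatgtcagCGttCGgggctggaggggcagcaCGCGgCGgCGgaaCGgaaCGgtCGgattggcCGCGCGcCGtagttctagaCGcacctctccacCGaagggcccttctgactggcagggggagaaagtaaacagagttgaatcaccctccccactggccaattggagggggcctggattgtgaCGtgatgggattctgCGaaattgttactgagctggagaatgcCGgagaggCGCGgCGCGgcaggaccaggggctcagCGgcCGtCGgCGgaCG
Tsc22d3: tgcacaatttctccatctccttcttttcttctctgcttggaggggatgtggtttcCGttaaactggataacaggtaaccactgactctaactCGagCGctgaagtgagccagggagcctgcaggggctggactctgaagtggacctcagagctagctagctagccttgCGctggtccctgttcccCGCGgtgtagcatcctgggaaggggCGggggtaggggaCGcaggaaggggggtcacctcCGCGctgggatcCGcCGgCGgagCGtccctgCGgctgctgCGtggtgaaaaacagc
Anxa1: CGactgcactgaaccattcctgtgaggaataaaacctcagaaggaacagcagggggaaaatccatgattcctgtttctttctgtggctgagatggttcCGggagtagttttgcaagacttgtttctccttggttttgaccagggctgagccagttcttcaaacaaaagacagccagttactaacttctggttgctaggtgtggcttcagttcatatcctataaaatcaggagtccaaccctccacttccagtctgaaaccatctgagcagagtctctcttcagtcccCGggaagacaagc
Hsd11b1: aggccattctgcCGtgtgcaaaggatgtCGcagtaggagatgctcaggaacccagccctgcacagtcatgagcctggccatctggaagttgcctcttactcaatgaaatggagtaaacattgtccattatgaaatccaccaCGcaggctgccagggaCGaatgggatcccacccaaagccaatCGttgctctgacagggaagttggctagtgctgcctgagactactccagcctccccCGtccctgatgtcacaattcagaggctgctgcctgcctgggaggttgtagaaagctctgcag
Sgk1: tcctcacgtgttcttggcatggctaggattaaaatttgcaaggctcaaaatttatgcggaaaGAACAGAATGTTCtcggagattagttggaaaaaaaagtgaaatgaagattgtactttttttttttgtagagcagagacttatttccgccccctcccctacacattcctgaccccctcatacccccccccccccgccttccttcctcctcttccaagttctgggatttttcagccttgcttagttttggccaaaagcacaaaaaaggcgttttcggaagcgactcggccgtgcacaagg

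The palindrome searched was GNACANNNTGTNC, in which N is any base. It reads the same on both strands, so that 1 search covers both. Of the 65 promoter windows of the 9 genes, 1 per distinct start, the Sgk1 window was the only one with a match, GAACAGAATGTTC from 21993702 to 21993714. Over all protein-coding genes 394 of 93462 windows (0.422%) had one. The match lay outside the peaks, 272 bp from the nearest peak of the control list and 362 bp from that of the asthmatic-mother list. None of the 16 and 11 peaks at the 9 genes held a match, beside 0.533% and 0.378% of all start peaks in the control and the asthmatic-mother list. Over the whole gene with 5 kb on either side, Fkbp5 had 11 matches in 128 kb, or 8.56 per 100 kb, where the assembled chromosomes had 1.70 per 100 kb. Per1 had 2, or 8.08 per 100 kb in its shorter span, Zbtb16 7 (3.65 per 100 kb), Sgk1 4 (3.13) and Hsd11b1 1 (1.91), while the 4 other genes had none. A match of letters is a description of the reference and says nothing of binding in these cells.

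A start peak, meaning one within 1000 bp of any annotated transcript start, was listed for 7 of the 9 genes in offspring of control mothers and for 6 of the 9 in offspring of asthmatic mothers. Nr3c1, Fkbp5, Tsc22d3, Klf9, Sgk1 and Zbtb16 had one in both lists. Per1 had one only in the control list, and Hsd11b1 and Anxa1 had one in neither. Of all protein-coding genes, 50.9% had a start peak in the control list, 41.9% in the asthmatic-mother list and 41.2% in both. A start peak in the control list alone was found at 9.71% of genes and in the asthmatic-mother list alone at 0.722%, so that the split of the 9 genes, 6, 1 and 0, ran in the direction of the whole genome. A signal below the caller's threshold is not listed, and the absence of a peak is not the absence of the mark. When peaks under a −log10 q of 5 were left out, the counts were 7 and 4, without Tsc22d3 and Zbtb16 in the asthmatic-mother list, beside 49.5% and 37.3% of all genes. Among the 10000 peaks of highest −log10 p of each list they were 1, Klf9, and 0, beside 32.2% and 9.32% of all genes.

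The lists themselves differed in a way that touches every value below. The control list held 42126 peaks, of which 30.3% lay at a protein-coding start, with a median width there of 472 bp. The asthmatic-mother list held 51610 peaks, of which 19.5% lay at such a start, with a median width of 320 bp. The number of fragments over a peak's summit, solved from the deposited fold and p (a derived value that assumes that peaks were called without a control, although the study kept chromatin for input libraries), had a median of 24 at start peaks of the control list and of 16 in the other. Ranks were therefore taken within a list, as the percentile of a peak's −log10 q among all peaks of its list, and each gene was set beside all genes. The cut at a −log10 q of 5 is an exception, since it applies the same value to both lists. The fragments are given for each library as they were solved, with no scaling for depth, so that a lower number in the asthmatic-mother list is not by itself a lower mark. Of the 13 ILC2 markers, 10 had a start peak in the control list and 7 in the asthmatic-mother list, without one for Icos, Klrg1 or Il13 in either. Markers of B cells, macrophages, neutrophils and fibroblasts had none. Of other cell types, 1 of 7 T cell markers (Lck), 1 of 4 endothelial markers (Kdr) and 2 of 5 epithelial markers (Epcam and Cdh1) had a start peak in the control list, Epcam at the 85.6th percentile, and 1 epithelial marker (Sftpb) in the asthmatic-mother list, while the Cd3 genes, Pecam1, Cdh5, Sftpc and Nkx2-1 had none in either. The study's reporting summary gives the sort gate for adult lung ILC2s as CD45+, lineage-negative, Thy1+ and ST2+. The purity of the sorted cells was not tested here. Whether other cells contributed to the peaks at the 9 genes was not tested.

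**Figure D1:**
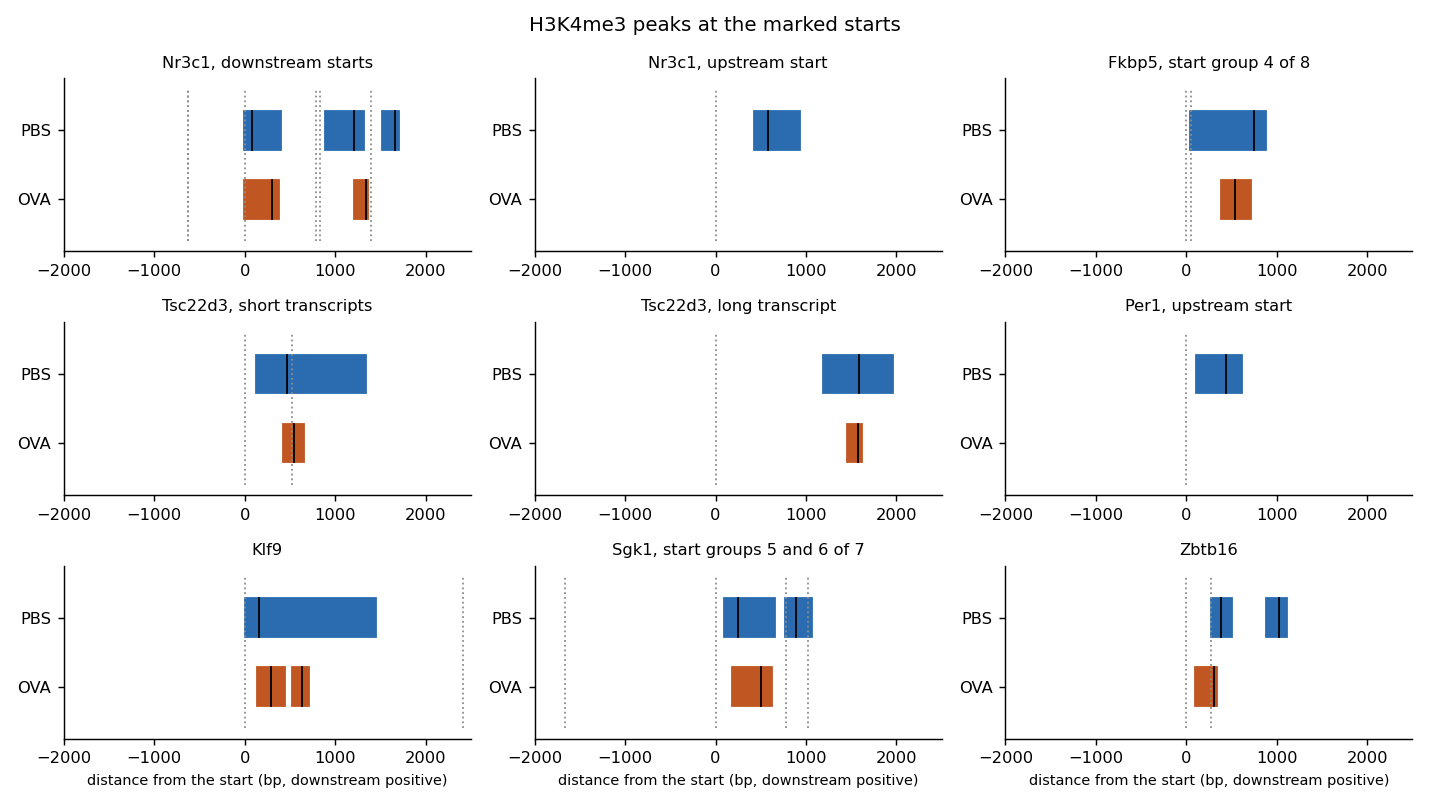
Peaks at the marked starts of the receptor gene and its targets. Each panel shows distance from a transcript start in bp (horizontal axis, downstream positive), with blue bars for peaks in offspring of PBS-treated control mothers, orange bars for peaks in offspring of OVA-treated asthmatic mothers, black lines for summits, and dotted lines for the first and last start of each group. Where peaks of the 2 lists overlap, the control peak is the wider one, except at Zbtb16 with 233 and 238 bp, and the upstream starts of Nr3c1 and Per1 carry a blue bar only.

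Nr3c1 (ENSMUSG00000024431.15) lies on the minus strand of chromosome 18, from 39410545 to 39519421, and its 9 annotated transcripts begin at 6 separate groups of starts, where starts at most 500 bp apart count as 1 group. In offspring of control mothers 5 of the 6 groups had a peak within 1000 bp, and in offspring of asthmatic mothers 4 of the 6. The group without a peak in either list was the most downstream, at 39487245, which was 1726 bp and 2064 bp from the nearest peak. The marked starts fell into a cluster of alternative first exons and 1 lone start far upstream.

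In the cluster, the control list had 3 peaks. The first, from 39490272 to 39490681, overlapped the transcript start at 39490674, at a −log10 q of 8.79, with 27 fragments at its summit (exact Poisson 95% interval 17.8 to 39.3). The second, from 39489353 to 39489786, had a −log10 q of 6.12 and 23 fragments (14.6 to 34.5), and the third, from 39488971 to 39489160, a −log10 q of 5.53 and 22 fragments (13.8 to 33.3). These intervals, like all others here, cover counting error only. The asthmatic-mother list had 2 peaks in the cluster, 1 from 39490301 to 39490677 (−log10 q 6.59, 19 fragments, 11.4 to 29.7) and 1 from 39489309 to 39489471 (−log10 q 3.98, 15 fragments, 8.40 to 24.7). Both overlapped the corresponding peak of the control list, by 377 bp and 119 bp. The stretch from the first to the last joined peak was 1711 bp wide in the control list and 1369 bp in the other.

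At the lone upstream start, at 39519421, the control list had a peak of 511 bp from 39518484 to 39518994, in an intron and 427 bp from the start. It had the highest −log10 q of the gene, 9.93, with 21 fragments at its summit (13.0 to 32.1) over a solved background of 2.58 fragments, where the background in the cluster was 5.11 to 5.17. Its GC content was 42.7%, the lowest of the 13 start peaks of the 9 genes in that list, and 39.7% of its bases were repeat-masked, although the 75 bases around its summit occur once in the assembled chromosomes. In offspring of asthmatic mothers the nearest peak was 28744 bp away. Of 800 control start peaks whose −log10 q lay within 0.5 of its own, 35.3% (exact Clopper-Pearson 95% interval 31.9 to 38.7%) had no overlapping peak in the asthmatic-mother list.

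Counted by its highest start peak, Nr3c1 stood at the 66.8th percentile of the control list and at the 41.5th of the asthmatic-mother list. The difference of −25.3 points lay near the middle of all 9068 genes with a start peak in both lists, at the 43.1st percentile, where the median difference was −21.1 points and the quartiles were −39.7 and −6.78. The highest peak was the upstream one in the control list and one of the cluster in the other, so that the 2 ranks describe different starts. Bases inside start peaks numbered 1545 bp and 540 bp, a ratio of 0.350 at the 11.8th percentile of ratios over all genes. The joined domain, 1711 bp and 1369 bp, gave a ratio of 0.800 at the 69.5th percentile, so that the place of Nr3c1 among all genes depends on which width is taken. The 3 protein-coding genes nearest to Nr3c1 in the 2 percentiles were Hmgb2 (67.0th and 41.6th), Tm6sf1 (67.1st and 42.1st) and Card9 (67.2nd and 42.2nd).

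Fkbp5, on the minus strand of chromosome 17, has 8 groups of starts, and 1 of them was marked, in both lists. This was the group at 28486149 to 28486093, whose CpG-dense promoter is printed above. The groups upstream of it, up to 28517527, had no peak within 1000 bp, and the same held for the 4 groups downstream. The control list had 1 peak of 841 bp there, from 28485264 to 28486104, at a −log10 q of 9.55, with 21 fragments at its summit (13.0 to 32.1). The asthmatic-mother list had 1 peak of 331 bp, from 28485432 to 28485762, at a −log10 q of 9.44, with 18 fragments (10.7 to 28.4). The narrower peak lay wholly inside the wider one. Fkbp5 was 1 of 2 genes of the set that ranked higher in offspring of asthmatic mothers, at the 71.9th percentile beside the 63.6th. Its difference of 8.28 points was higher than that of 94.3% of all genes marked in both lists, and a rank higher in the asthmatic-mother list was found at 13.3% of them. By width the order was the reverse, since the ratio of covered bases was 0.394.

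Tsc22d3, on the minus strand of the X chromosome, showed the widest gap of the set in rank among all peaks. Its short transcripts start between 140543187 and 140542668, and there the control list had a peak of 1226 bp, from 140541842 to 140543067, at a −log10 q of 9.89, with 26 fragments at the summit (17.0 to 38.1). The asthmatic-mother list had a peak of 237 bp in the same place, from 140542533 to 140542769, at a −log10 q of 3.26, with 11 fragments (5.49 to 19.7). The first was wider than 99.5% of the peaks of its list, and the second stood at the 46.3rd percentile of widths in its own. In rank the gene stood at the 66.7th percentile of the control list and at the 1.93rd of the other, a difference of −64.8 points at the 6.69th percentile of all genes marked in both. Ranked among genes with a start peak only, the difference was −23.4 points, at the 26.4th percentile, and smaller in size than those of Fkbp5 (42.8) and Sgk1 (32.1). The ratio of covered bases, 0.193, was undercut by 1.27% of these genes.

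The long transcript of Tsc22d3 starts far upstream, at 140600659, and had no peak within 1000 bp. An intronic peak lay downstream of it in both lists. In the control list it ran from 140598701 to 140599471, began 1188 bp from the start, and had a −log10 q of 7.19 and 16 fragments (9.15 to 26.0). In the asthmatic-mother list it ran from 140599043 to 140599200, 1459 bp from the start, at a −log10 q of 6.00, with 13 fragments (6.92 to 22.2).

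Per1, on the plus strand of chromosome 11, was the gene of the set with a start peak in the control list only. The peak ran from 69095325 to 69095828, 108 bp downstream of the most upstream start, at 69095217, with a −log10 q of 7.49, the 46.8th percentile, and 27 fragments at its summit (17.8 to 39.3). The start at 69098948 and those from 69100152 on had no peak within 1000 bp in either list. In offspring of asthmatic mothers the nearest peak to any start was 6140 bp away. Of 923 control start peaks whose −log10 q lay within 0.5 of this one, 59.9% (56.7 to 63.1%) had no overlapping peak in the asthmatic-mother list, so that most peaks of its strength had no counterpart there either.

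Klf9, on the plus strand of chromosome 19, had the highest start peak of the set in the control list. The peak was 1453 bp wide, from 23141230 to 23142682 directly downstream of the start at 23141226, with a −log10 q of 12.1, the 77.0th percentile, and 30 fragments (20.2 to 42.8). Few peaks of the control list were wider (99.9th percentile). Inside its span the asthmatic-mother list had 2 peaks, of 306 bp at a −log10 q of 7.74, with 18 fragments (10.7 to 28.4), and of 182 bp at a −log10 q of 2.77, with 11 fragments (5.49 to 19.7). The gene stood at the 57.2nd percentile of that list, and the difference of −19.8 points lay in the middle of all genes, at the 52.1st percentile of differences. The ratio of covered bases was 0.336, and 20.8% of control start peaks of like −log10 q had no counterpart.

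Sgk1, on the plus strand of chromosome 10, has 7 groups of starts. In both lists the marked ones were the 2 neighbouring groups at 21993890 and 21994666. The control list had peaks from 21993986 to 21994547 (−log10 q 9.36, 24 fragments, 15.4 to 35.7) and from 21994661 to 21994955 (5.67, 19 fragments, 11.4 to 29.7). The asthmatic-mother list had 1 peak between these starts, from 21994076 to 21994513 (8.39, 17 fragments, 9.90 to 27.2), all of it inside the first control peak. The control list also had a small peak, from 21882143 to 21882332 (5.39, 13 fragments, 6.92 to 22.2), at the most upstream start, 21882184, where the nearest peak of the asthmatic-mother list was 111892 bp away. Of control start peaks with a −log10 q like that of the small one, 74.5% had no overlapping peak in the other list. In rank among all peaks Sgk1 stood at the 62.7th and the 63.3rd percentile, a difference of 0.608 points that was higher than at 87.6% of genes. Ranked by fold the difference was 20.3 points and among genes with a start peak 32.1, while the ratio of covered bases was 0.418.

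Zbtb16, on the minus strand of chromosome 9, ranked lowest of the marked genes in the control list and second to Tsc22d3 from the bottom in the other. The control list had 2 peaks, from 48835719 to 48835951 (−log10 q 5.29, 17 fragments, 9.90 to 27.2) over the start at 48835945, and from 48835107 to 48835344 (4.64, 16 fragments, 9.15 to 26.0) downstream of it. The asthmatic-mother list had 1 peak, from 48835885 to 48836122 (3.79, 11 fragments, 5.49 to 19.7). The gene stood at the 18.9th and the 6.00th percentile. Its ratio of covered bases, 0.505, was the highest of the 6 genes and below the median of all genes.

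Hsd11b1, on the minus strand of chromosome 1, had no peak at any of its 6 groups of starts, but 2 peaks in introns in both lists. The stronger ran from 193227706 to 193228019 in the control list and from 193227746 to 193227985 in the other, with −log10 q of 36.2 and 30.7, the 99.3rd and 99.0th percentiles, and 41 (29.4 to 55.6) and 35 (24.4 to 48.7) fragments. It was the strongest peak at any of the 9 genes, and it was 11004 bp and 11038 bp from the nearest start. The 75 bases around its summit occur 589 times in the assembled chromosomes at the control summit and 588 times at the other. The summit bases alone therefore do not place the peak at Hsd11b1 rather than at the other copies. Whether its read pairs can be placed there was not tested. The second, from 193245861 to 193246142 and from 193245835 to 193246191, lay entirely in repeat-masked sequence, and its summit sequences occur 27 and 16 times. Every start peak of the set, in contrast, had a summit sequence that occurs once.

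Anxa1, on the minus strand of chromosome 19, had no peak over its body or at any of its 5 groups of starts. The nearest peaks were 65091 bp and 65099 bp from its starts in the 2 lists. Its promoter is among the CpG-poor ones printed above.

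**Figure D2:**
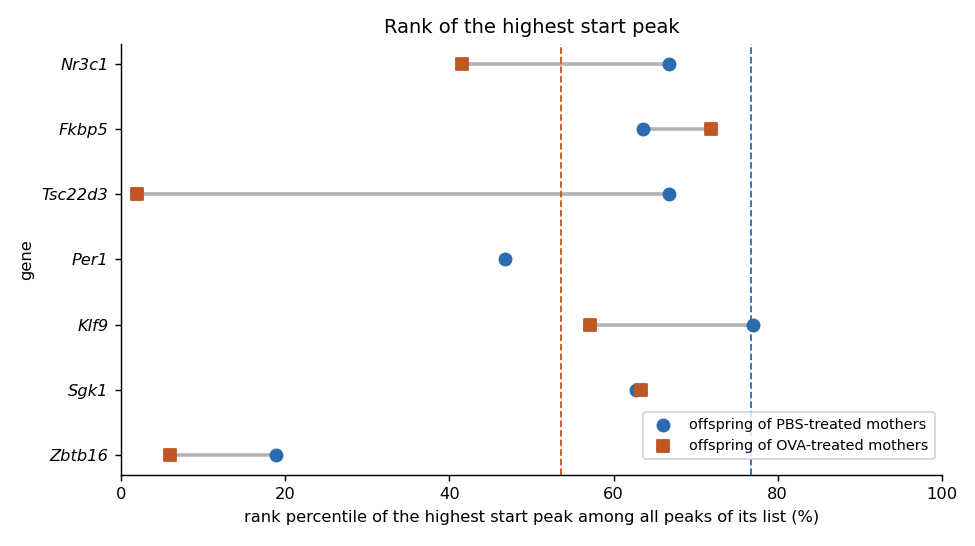
Rank of the highest start peak of each gene. The horizontal axis gives the percentile of its −log10 q among all peaks of the same list, blue circles stand for offspring of PBS-treated control mothers and orange squares for offspring of OVA-treated asthmatic mothers, and dashed lines mark the median of all protein-coding start peaks of each list (76.8 and 53.6). Fkbp5 and Sgk1 lie slightly higher in the asthmatic-mother list, and Tsc22d3 falls from 66.7 to 1.93.

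Side by side, the 6 genes marked in both lists were set beside all genes in rank and in width. The median rank difference of the 6 was −16.4 points, from −64.8 at Tsc22d3 to 8.28 at Fkbp5, beside −21.1 over all 9068 genes. The median ratio of covered bases was 0.372, from 0.193 to 0.505, beside 0.627 over all genes with quartiles of 0.460 and 0.786. For the width of the joined domain, which counts the gaps between peaks, the median ratio was 0.394, from 0.193 to 0.800, beside 0.664 over all genes. All 6 had at least 1.5 times more covered bases in offspring of control mothers, which held for 56.4% of the 9068 genes, while at least 1.5 times more in offspring of asthmatic mothers was found at 0.562% and at none of the 6. The 6 genes had a median of 1136.5 bp in the control list beside 685 bp over all genes, and 384.5 bp beside 403 bp in the other. Genes of like width in the control list were not compared. In rank the 6 stood below other genes in both lists, with medians of the 65.2nd and the 49.4th percentile beside the 85.7th and the 61.2nd. Ranked instead among the start peaks of protein-coding genes alone, 1 per gene, the 6 had a median difference of 5.98 points beside −4.97 over all genes, so that the direction of the rank change depends on which peaks are ranked. With 6 genes chosen for their function and 1 library per group, these are descriptions of the 2 lists.

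**Figure D3:**
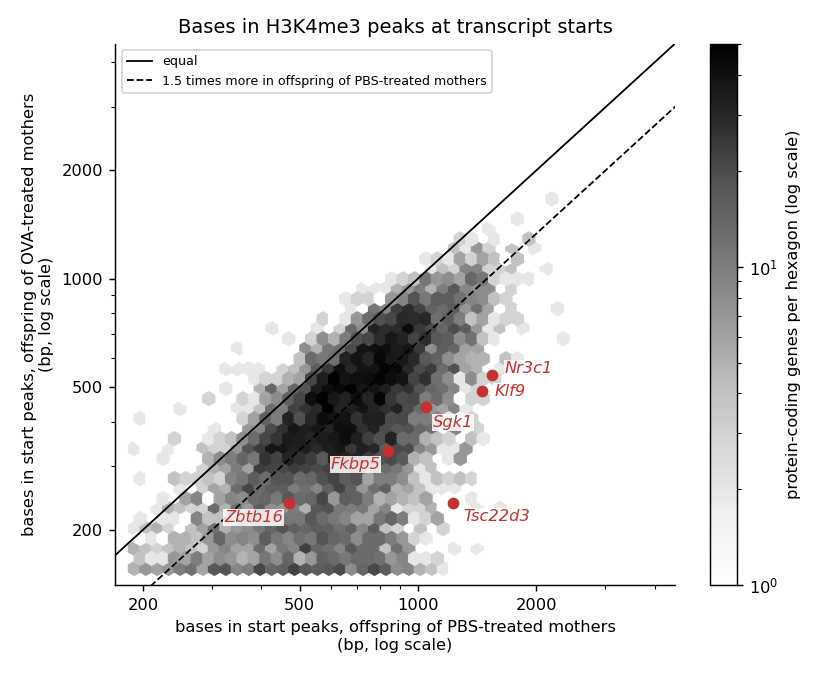
Bases inside start peaks of each protein-coding gene with a start peak in both lists. Both axes are in bp on log scales, for offspring of PBS-treated control mothers (horizontal) and of OVA-treated asthmatic mothers (vertical), grey hexagons count the 9068 genes, red points are the 6 genes of the set, and the dashed line marks 1.5 times more bases in offspring of control mothers. All 6 points lie below the dashed line, with Tsc22d3 the farthest at 1226 and 237 bp.

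The fragments behind these peaks were few in both libraries. At the 13 start peaks of the control list they ranged from 13 to 30 with a median of 22, and at the 8 of the asthmatic-mother list from 11 to 19 with a median of 16. The medians of all start peaks were 24 and 16. Of the 13 control start peaks 7 overlapped a peak of the asthmatic-mother list, beside 70% of all control start peaks of protein-coding genes. All 8 start peaks of the asthmatic-mother list overlapped a control peak, beside 95.6% of all. The summit lay downstream of the nearest start at 11 of 13 and at 6 of 8. Over all 13 and all 8, upstream summits included, the median position was 160 bp and 160.5 bp downstream.

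**Figure D4:**
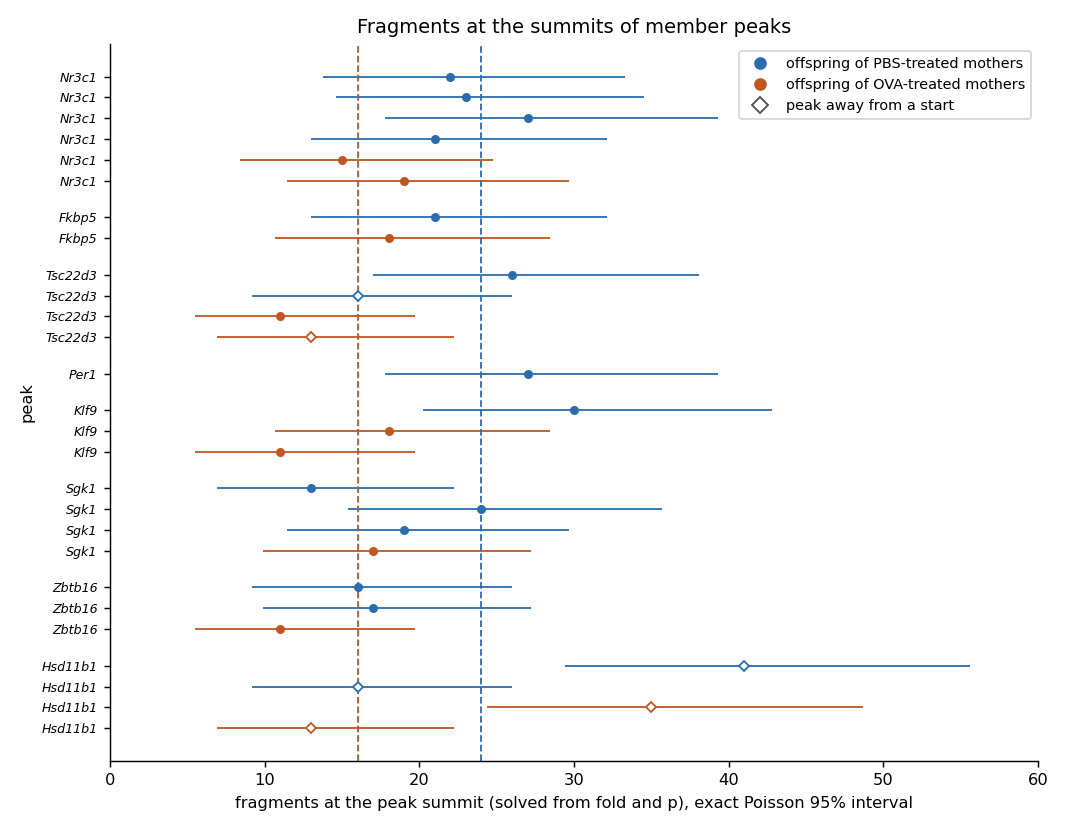
Fragments over the summit of every peak at the 9 genes. Points are counts solved from the deposited fold and p, bars are exact Poisson 95% intervals, blue stands for offspring of PBS-treated control mothers and orange for offspring of OVA-treated asthmatic mothers, open diamonds are peaks away from a start, and dashed lines mark the medians of all protein-coding start peaks (24 and 16). Start peaks lie between 13 and 30 in the control library and between 11 and 19 in the other, with no scaling for depth, and the highest counts, 41 and 35, belong to the Hsd11b1 peak whose summit sequence is repeated.

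Which starts carried a peak went with their CpG content, a comparison that was added after the values were seen. The observed to expected CpG ratio was taken over the same 300-base window at the outermost start of each of the 41 start groups of the 9 genes. The 14 groups marked in the control list had a median ratio of 0.709, from 0.168 to 1.09, and the 27 unmarked groups one of 0.251, from 0 to 0.675. The 10 groups marked in the asthmatic-mother list had a median of 0.835, and its 31 unmarked groups one of 0.251. The starts of Hsd11b1 ranged from 0 to 0.450 and those of Anxa1 from 0 to 0.375. Over the starts of all protein-coding genes, a peak was listed at 4.77% and 3.22% of those with a ratio under 0.2, and at 87.0% and 74.9% of those from 0.8 to 1, in the control and the asthmatic-mother list. Per1 did not follow this order at all of its starts, since the one at 69100152, with a ratio of 0.675, had no peak in either list, where 74.1% and 59.5% of starts from 0.6 to 0.8 had one. Of the marked groups with low ratios, that of the Tsc22d3 short transcripts had 0.276 at its outermost start, but both peaks overlapped its start at 140542668, whose window is printed above with 16 CpG. The Klf9 start at 23143644 (0.168) counted as marked in the control list through the wide peak of the upstream start, which ended 962 bp away. The Sgk1 start at 21882184 (0.206) had a peak of its own in that list, where 11.1% of starts from 0.2 to 0.4 had one. The start groups share genes and are not independent of each other.

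**Figure D5:**
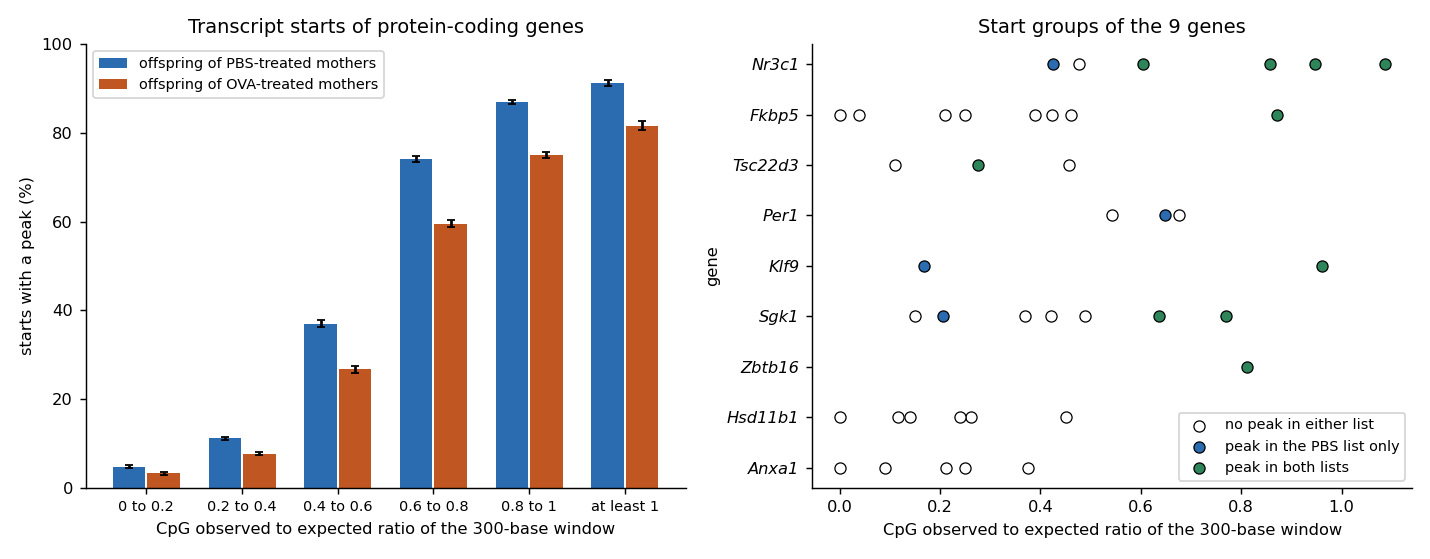
CpG content of transcript starts and H3K4me3. Left, percent of starts of protein-coding genes with a peak within 1000 bp (vertical axis) by the observed to expected CpG ratio of the 300-base window (horizontal axis), in blue for offspring of PBS-treated control mothers and orange for offspring of OVA-treated asthmatic mothers, with exact Clopper-Pearson 95% intervals as bars. Right, the ratio of each of the 41 start groups of the 9 genes, green with a peak in both lists, blue in the control list only and open in neither, where the starts of Hsd11b1 and Anxa1 all lie at or below 0.450.

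Further genes of the pathway were read from 4 lists. All 12 genes listed as chaperones and cochaperones had a start peak in the control list and 11 in the asthmatic-mother list. Ppid, which encodes cyclophilin 40, was the one without (68.3rd percentile in the control list). All 17 coregulators had one in both. Among them the widest start domains were those of Cbx3, which encodes heterochromatin protein 1 gamma, with 2465 bp and 1882 bp, and of the coactivator Ncoa2, with 1922 bp and 1604 bp. Hsp90ab1, the constitutive HSP90, came next in the asthmatic-mother list with 1436 bp. The shares, 100% and 91.7% for the chaperones and 100% in both lists for the coregulators, stood beside 50.9% and 41.9% of all genes.

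Of 10 genes of steroid handling and related receptors, 6 had a start peak in the control list and 5 in the asthmatic-mother list. Hsd11b2, the enzyme that inactivates glucocorticoids, had one in the control list and not in the other, at the 51.2nd percentile, and the drug exporter gene Abcb1a in the other only, at the 38.4th. The steroid-synthesis genes Cyp11a1 and Cyp11b1 and the progesterone receptor gene Pgr had none. Of 27 further targets, 20 and 15 had a start peak, or 74.1% and 55.6%. Of the 20 with a start peak in the control list, 5 had none in the other, beside 2138 of the 11206 genes with a control start peak. Out of all 27, these 5 had one in the control list only, where 9.71% of all genes did. These were Angptl4 (82.4th percentile), Il7r (73.8th), Txnip (57.0th), Bcl2l11 (49.5th) and Zfp36 (48.7th), of which Zfp36 encodes a factor of cytokine mRNA decay, Bcl2l11 the death factor BIM, and Il7r the IL-7 receptor, also counted above as an ILC2 marker. Nfkbia, the inhibitor of NF-κB, went from a domain of 2141 bp in the control list to 189 bp in the other. The 7 without a start peak in either list were Lcn2, Pck1, Pdk4, Cdkn1c, Mt1, Mt2 and Tat. The median ratio of covered bases was 0.632 for the chaperones, 0.716 for the coregulators, 0.690 for steroid handling and 0.596 for the further targets, beside 0.627 over all genes and 0.372 over the 6 genes marked in both lists. The 7 ILC2 markers with a start peak in both lists had a median ratio of 0.393, close to that of the 6 genes, and a median rank difference of −30.4 points.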

How the data were processed

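H3K4me3 CATCH-seq peak lists of lung ILC2s were read for 1 library of offspring of control mothers and 1 of asthmatic mothers, as the labels group them. The authors trimmed the reads with Trim Galore and cutadapt and aligned them with Bowtie2 to mm10 (GRCm38), per the labels. The peak caller, its threshold and the use of a control are not given in the sources used here, and the study's reporting summary says that peaks were not called on these data. The deposited lists hold a score, a ratio (fold over the caller's background) and the −log10 of a p-value and of a q-value for each peak, and no scaling of these deposited values between libraries is given.

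Starts came from GENCODE vM21, peaks counted within 1000 bp of a start, overlapped by at least 1 bp, and were joined up to 1000 bp apart. Starts at most 500 bp apart formed a group. Fragments at summits were solved from fold and −log10 p under a Poisson model with 1 added to signal and background, within 0.0005 of the −log10 p. Total read depth per library was not given in these files. Copies of the 75 bases around summits were counted on 21 chromosomes. Finding, joining and solving were tested on simulated data. Scripts ran in Python 3.11.15 with scipy 1.17.1, pandas 2.3.3, numpy 2.4.6 and matplotlib 3.10.9. The genes and lists were chosen with earlier results of these data known. Named were the 9 genes, pathway genes with a start peak in 1 list only or among the 3 widest start domains, markers of other cell types with a start peak, and the 3 genes nearest to Nr3c1 in rank; 1 gene that this rule names is not reported here. Alternatives were other distances, thresholds, start sets, rankings and joining, as given in the closing section.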

Additional observations from a re-analysis of the deposited data

How the results depend on the processing

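No paired analysis was possible because each group had 1 library and no test was made, and leaving out a replicate was not possible for the same reason. With a distance of 500 bp or 2000 bp, with protein-coding transcripts only and with single-copy summits only, the counts of genes with a start peak, 7 in the control list and 6 in the asthmatic-mother list, were the same. The Nr3c1 start groups marked in the 2 lists were 4 and 3 at 500 bp and 6 and 4 at 2000 bp. At a −log10 q of at least 5 they were 5 and 3. With a −log10 q of at least 5, 3 genes had a start peak in the control list only, beside 12.7% of all genes, and the asthmatic-mother list held 7 peaks at the 9 genes. Among the 10000 peaks of highest −log10 p, 1 gene had a start peak in the control list, 0 in the asthmatic-mother list and 0 in both, beside 32.2%, 9.32% and 8.43% of all genes, and 0 of the Nr3c1 start groups were marked in either list. At the 5′ end of the gene only, 2 genes had one in the asthmatic-mother list, 2 in both and 3 in the control list only, beside 38.3%, 37.7% and 9.32% of all genes, and 1 and 0 Nr3c1 start groups were marked, since fewer starts were read.

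The median rank percentile of the marked genes was 63.6 in the control list and 49.4 in the asthmatic-mother list. Ranked by fold it was 50.9 and 47.7, with a median difference of −1.58 points. Ranked by width it was 83.5 and 67.7, with a difference of −12.9. Ranked among genes with a start peak it was 21.9 and 37.4, with a difference of 5.98, the reverse of the −16.4 above. Rank differences of single genes also reversed, for Klf9 by fold (1.51), for Zbtb16 (19.5) and Fkbp5 (−25.1) by width, and for Zbtb16 (0.652), Nr3c1 (4.17) and Klf9 (7.79) among genes with a start peak. The difference of Sgk1 kept its direction at 20.3 by fold, 1.98 by width and 32.1 among genes with a start peak, and that of Tsc22d3 at −37.0, −53.2 and −23.4. The cause was not tested. Peaks away from starts fell to 1 in each list with single-copy summits, the one at Tsc22d3. Domain widths moved by less than 1.5 times under each joining and threshold tried.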
